A study of Mus musculus and Sus scrofa with 30 samples.

Results

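Insulin signalling was followed through 9 genes, named by symbol: the insulin receptor Insr, its substrates Irs1 and Irs2, the receptor-binding adaptor Grb14, the PI 3-kinase subunit Pik3r1, the kinases Akt1 and Akt2, the transcription factor Foxo1, and Slc2a4, which encodes the glucose transporter GLUT4. All 9 had a row among the 24843 genes of the mouse table, and all 9 reached the mean of 10 normalized counts required for testing, as did 15723 genes in all. Among 34307 rows of the pig data were 8 of the members, and 7 were among the 14819 genes tested. AKT1 was not analysed in the pig cells, and GRB14 had a row but did not reach the minimum. The 30 bulk RNA-seq libraries came from 2 cell systems taken on day 5 of adipogenic differentiation: 3T3-L1, a mouse embryonic fibroblast line that can form adipocytes, and porcine DFAT cells, dedifferentiated fat cells from subcutaneous fat.

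Each system had 5 groups of 3 libraries: DMSO as vehicle, dicoumarol, magnolol, dicoumarol with magnolol (called the combination), and rosiglitazone, an agonist of the nuclear receptor PPARγ. No genotype or transgene separated the groups. Every 3T3-L1 group, vehicle included, received insulin at 0.75 µg/mL, dexamethasone at 75 nM and IBMX at 37.5 µM in 10% serum. The DFAT medium lists no insulin. It held dexamethasone at 0.5 µM, IBMX at 12.5 µM, biotin at 20 µM and pantothenate at 10 µM in 2% serum, also for all its groups. Species, medium and serum therefore cannot be told apart between the systems. The sources used here state neither the doses of the 4 treatments nor the number of pigs behind the DFAT cells. The labels do not say that replicates came from separate cultures, so p-values measure the spread between libraries, which may be technical.

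Insulin binds its receptor, a tyrosine kinase, which phosphorylates IRS1 and IRS2. These recruit PI 3-kinase, whose lipid product brings AKT to the membrane. In fat cells AKT2 drives GLUT4-containing vesicles to the cell surface, and AKT1 and AKT2 keep FOXO1 out of the nucleus. GRB14 binds the activated receptor and inhibits it. GLUT4 is the main insulin-responsive glucose transporter of fat and muscle and appears late in adipogenesis.

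Promoter sequences are shown for 3 members with 1 listed start: the substrates Irs1 and Irs2, of which Irs2 was called higher with rosiglitazone in both systems and Irs1 in neither, and Grb14, called lower with 3 treatments in 3T3-L1. Each is the 250 bases before the start in RefSeq on GRCm38.p6, 5′ to 3′ on the gene's strand, all 3 on the minus strand: chr1:82291440-82291689 for Irs1, chr8:11008930-11009179 for Irs2 and chr2:65022767-65023016 for Grb14. Capitals mark the motifs that were found.
Irs1: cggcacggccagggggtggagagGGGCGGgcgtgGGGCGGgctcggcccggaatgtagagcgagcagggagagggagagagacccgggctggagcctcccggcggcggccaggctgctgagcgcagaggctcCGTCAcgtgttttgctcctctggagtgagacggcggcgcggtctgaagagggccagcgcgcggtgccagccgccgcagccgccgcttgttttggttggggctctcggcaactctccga
Irs2: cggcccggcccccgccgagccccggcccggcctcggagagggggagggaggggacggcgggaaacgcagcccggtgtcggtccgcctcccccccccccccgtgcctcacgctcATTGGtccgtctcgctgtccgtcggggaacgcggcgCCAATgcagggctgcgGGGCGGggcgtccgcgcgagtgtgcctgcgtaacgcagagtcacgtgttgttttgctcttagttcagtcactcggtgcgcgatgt
Grb14: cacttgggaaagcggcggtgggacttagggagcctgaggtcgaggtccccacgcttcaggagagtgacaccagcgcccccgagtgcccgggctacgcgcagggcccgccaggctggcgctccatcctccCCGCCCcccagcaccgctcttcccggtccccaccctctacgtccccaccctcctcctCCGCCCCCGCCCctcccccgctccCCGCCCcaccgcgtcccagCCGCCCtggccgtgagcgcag
The motifs searched on both strands were the GC box GGGCGG, the CCAAT box CCAAT, the CRE half-site TGACG, the nuclear receptor half-site AGGTCA and the forkhead site TGTTTAC. Irs1 held 2 GC boxes and 1 CRE half-site, Irs2 held 1 GC box and 2 CCAAT boxes, and Grb14 held 5 GC boxes. No motif overlapped another in these windows. Of 32851 promoter windows of the same length, 32.7% held a GC box, 33.8% a CCAAT box, 17.8% a CRE half-site, 14.0% the nuclear receptor half-site and 3.17% the forkhead site. A match describes letters only.

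Values are normalized counts: gene counts that the authors scaled by 1 DESeq2 size factor for each library. Depth, estimated from what 1 read was worth, had a median of 27.1 M reads for 3T3-L1 libraries (22.8 to 30.7 M) and of 62.4 M for DFAT libraries (44.7 to 70.4 M). The tables were normalized separately, so levels are not compared between systems. Differences were tested with limma on log2(normalized count + 1) over all genes of a table, two-sided, with Benjamini-Hochberg adjustment. A gene was called at an adjusted p under 0.05, and "rose" or "fell" is used for called genes. Log2 fold changes use that scale, on which low genes change less than their ratios, and their SE is limma's. Full separation of 3 libraries from 3 cannot bring an exact permutation p under 0.10. Groups without overlap are therefore a description only, and their share over all genes is not given here. Adipocyte markers were present in both systems: all 12 of a list that includes Adipoq, Fabp4 and Plin1 had a row, and 11 in 3T3-L1 and all 12 in DFAT reached the minimum.

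Slc2a4 changed most among the members tested and Grb14, Irs2 and the AKT genes changed less. Slc2a4 reached the minimum mean of 10 only through its treated groups, with vehicle means of 7.50 in 3T3-L1 and 3.08 in DFAT. In 3T3-L1 cells Slc2a4 rose with magnolol, the combination and rosiglitazone, Grb14 fell with the same 3 treatments, and Irs2 rose with the combination and with rosiglitazone. In DFAT cells SLC2A4 again rose with these 3 treatments. With rosiglitazone IRS2 rose there, and PIK3R1 and INSR fell. IRS2 also fell slightly with magnolol, and IRS1 with the combination. Both of these falls and that of INSR were lost in some alternatives given below. So were both 3T3-L1 magnolol calls and the 3T3-L1 Irs2 rise with the combination. In number, 3T3-L1 members called against vehicle were 0 of 9 for dicoumarol, 2 for magnolol, 4 for the combination and 6 for rosiglitazone. Of all 15723 genes tested, 0%, 1.23%, 5.22% and 40.1% were called in the same order. This fit left out the replicate number, although same-numbered 3T3-L1 libraries deviated together (median correlation 0.300, against −0.142 for other pairs). With the replicate number as a block, 79, 780, 2124 and 7827 of all genes were called in that order. Foxo1 was then also called with the combination (limma adjusted p 0.0159). In DFAT 0, 2, 2 and 4 of 7 members were called, against 1.94%, 4.22%, 10.2% and 10.8% of all 14819 genes. The members were chosen with earlier results of these data known, so these counts beside the shares are a description and not a test. Dicoumarol left 1 3T3-L1 member (Grb14) and 2 DFAT members (SLC2A4 and IRS2) at an unadjusted p under 0.05.

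The members' differences are given beside those of all genes. The median absolute log2 fold change of the 9 3T3-L1 members was 0.08 for dicoumarol, 0.20 for magnolol, 0.27 for the combination and 0.38 for rosiglitazone, where the median over all genes was 0.08, 0.12, 0.15 and 0.33. For the 7 DFAT members it was 0.13, 0.06, 0.14 and 0.26, against 0.09, 0.11, 0.14 and 0.12 over all genes. The members' median lay below that of all genes in DFAT with magnolol and above it in DFAT with rosiglitazone.

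**Figure D1:**
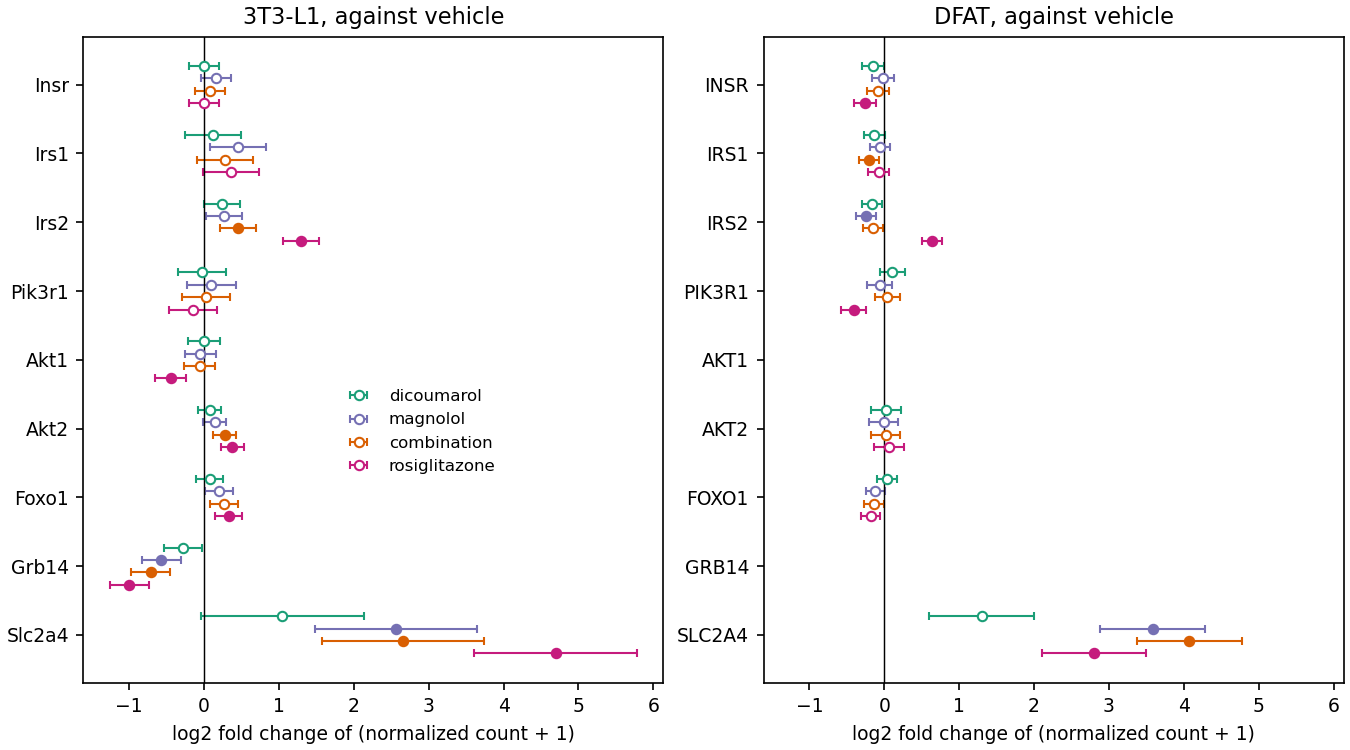
Log2 fold change of each member against vehicle on the log2(normalized count + 1) scale, 3T3-L1 left and DFAT right, with bars for 95% confidence intervals from limma and filled points for an adjusted p under 0.05. Slc2a4 lies furthest to the right in both systems, and most other members lie within 1 log2 unit of 0; AKT1 and GRB14 have no DFAT value.

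Within 3T3-L1 the levels of the members were compared per length, as normalized counts per kilobase of exon (GENCODE vM21 exon union). With vehicle, Akt1 was highest at 2375 ± 202 (SD, n = 3), followed by Pik3r1 at 1141 ± 208, Akt2 at 313 ± 6.77, Foxo1 at 234 ± 12.6, Irs2 at 189 ± 29.8, Insr at 150 ± 3.41, Irs1 at 107 ± 21.9, Grb14 at 46.9 ± 5.13 and Slc2a4 at 2.16 ± 0.795. Neighbours in this order did not overlap, although the lowest Foxo1 library (223.8) lay next to the highest Irs2 library (223.3). With rosiglitazone Irs2 stood at 461 ± 18.8, above Akt2 at 408 ± 25.1 with no overlap, and Slc2a4 at 63.8 ± 23.0, above Grb14 at 23.4 ± 3.07. Irs1 (137 ± 27.6) and Insr (151 ± 14.0) overlapped there.

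The receptor itself varied little. Insr (chromosome 8, 3172061 to 3329617, minus strand; coordinates here and below as deposited, on a build not settled) had 2045, 2122 and 2037 normalized counts with vehicle in 3T3-L1 and 1855, 2201 and 2176 with rosiglitazone. Those groups overlapped, and Insr was not called in any comparison. The rosiglitazone difference was 0.00 (95% interval −0.20 to 0.20), and the 3 magnolol libraries, at 2164, 2334 and 2410, lay above vehicle with a difference of 0.15 (limma adjusted p 0.654). In DFAT, INSR (chromosome 2, 71797204 to 71936104, plus strand) had 2792, 2738 and 2712 with vehicle and fell to 2448, 2284 and 2160 with rosiglitazone. All 3 treated libraries were below the vehicle libraries, and the log2 fold change was −0.26 (SE 0.07, limma adjusted p 0.0245). The fall missed the threshold without vehicle replicate 1 (limma adjusted p 0.0846), vehicle replicate 2 (0.0674) or rosiglitazone replicate 3 (0.117), and with only the compared groups fitted (0.0719). With dicoumarol INSR was 2454, 2455 and 2516, also below vehicle without overlap but not called (limma adjusted p 0.492).

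The substrates behaved differently from each other. Irs2 (chromosome 8, 11034681 to 11058458, minus strand) had 1074, 1412 and 1100 normalized counts with vehicle in 3T3-L1 and 3052, 2872 and 2828 with rosiglitazone. The groups were well separated, and Irs2 rose by 1.30 (SE 0.11, limma adjusted p 7.2e-07), or 2.46-fold. With the combination Irs2 was 1766, 1731 and 1402, with a called rise of 0.45 (limma adjusted p 0.0300), although its lowest library lay just under the highest vehicle library. That smaller rise missed the threshold without combination replicate 1 (limma adjusted p 0.168), combination replicate 2 (0.0969), vehicle replicate 1 (0.120) or vehicle replicate 3 (0.113), and also with no variance trend (0.0609) or a fit of those groups alone (0.0895). It kept its call with the replicate number as a block (limma adjusted p 0.00229). Dicoumarol (1319, 1537 and 1354) and magnolol (1435, 1509 and 1334) overlapped with vehicle and were not called.

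In DFAT, IRS2 (chromosome 11, 76626179 to 76653881, minus strand) had 4911, 4222 and 4634 normalized counts with vehicle and rose to 7764, 6831 and 6847 with rosiglitazone. The log2 fold change was 0.64 (SE 0.06, limma adjusted p 1.82e-06), or 1.56-fold, with no overlap. The other treatments went the other way: every library of dicoumarol (4091, 3978 and 4192), magnolol (3845, 3797 and 3987) and the combination (4068, 4076 and 4220) lay below all vehicle libraries. Of these only magnolol was called, where IRS2 fell by 0.24 (SE 0.06, limma adjusted p 0.0394); dicoumarol (−0.16) and the combination (−0.15) had limma adjusted p of 0.314 and 0.147. That call did not survive removal of vehicle replicate 1 (limma adjusted p 0.199), vehicle replicate 3 (0.106), magnolol replicate 1 (0.129), 2 (0.121) or 3 (0.0679). It was also lost with no filter (0.0655), quantile normalization (0.0528), only the compared groups fitted (0.0886) and no variance trend (0.0760).

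Irs1 (chromosome 1, 82210822 to 82269137, minus strand) was not called in any 3T3-L1 comparison. Its values were 1010, 1157 and 762 with vehicle, 1227, 1278 and 1467 with magnolol, 1301, 913 and 1356 with the combination, and 977, 1471 and 1313 with rosiglitazone. Magnolol lay above vehicle without overlap (0.46, limma adjusted p 0.349), and rosiglitazone overlapped it (0.36, limma adjusted p 0.115; 0.0316 without rosiglitazone replicate 1). Gm9747 overlaps Irs1 on the other strand with a mean of 689 normalized counts beside 1158 for Irs1. Whether counting used strand is not stated, so reads of the pair may not be told apart. In DFAT, IRS1 (chromosome 15, 128245846 to 128307284, minus strand) was 4703, 4111 and 4038 with vehicle and 3866, 3612 and 3627 with the combination. It fell by 0.21 (SE 0.06, limma adjusted p 0.0487) with no overlap, a call just under the threshold. Removal of 1 library ended it for vehicle replicate 1 (limma adjusted p 0.233), vehicle replicate 2 (0.0519) and combination replicates 1 (0.0581), 2 (0.132) and 3 (0.133). The same held with no filter (0.0746), quantile normalization (0.0682), only the compared groups fitted (0.115) and no variance trend (0.0819).

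The ratio of Irs1 to Irs2 within a library does not depend on the size factor, and it is given as a description. On the log2 scale it ran from −0.53 to −0.09 in the 3T3-L1 vehicle libraries and from −1.64 to −0.97 with rosiglitazone. In DFAT the corresponding ranges were −0.20 to −0.04 and −0.89 to −0.75. With rosiglitazone the ratio shifted toward Irs2 in both systems, beyond every vehicle library.

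**Figure D2:**
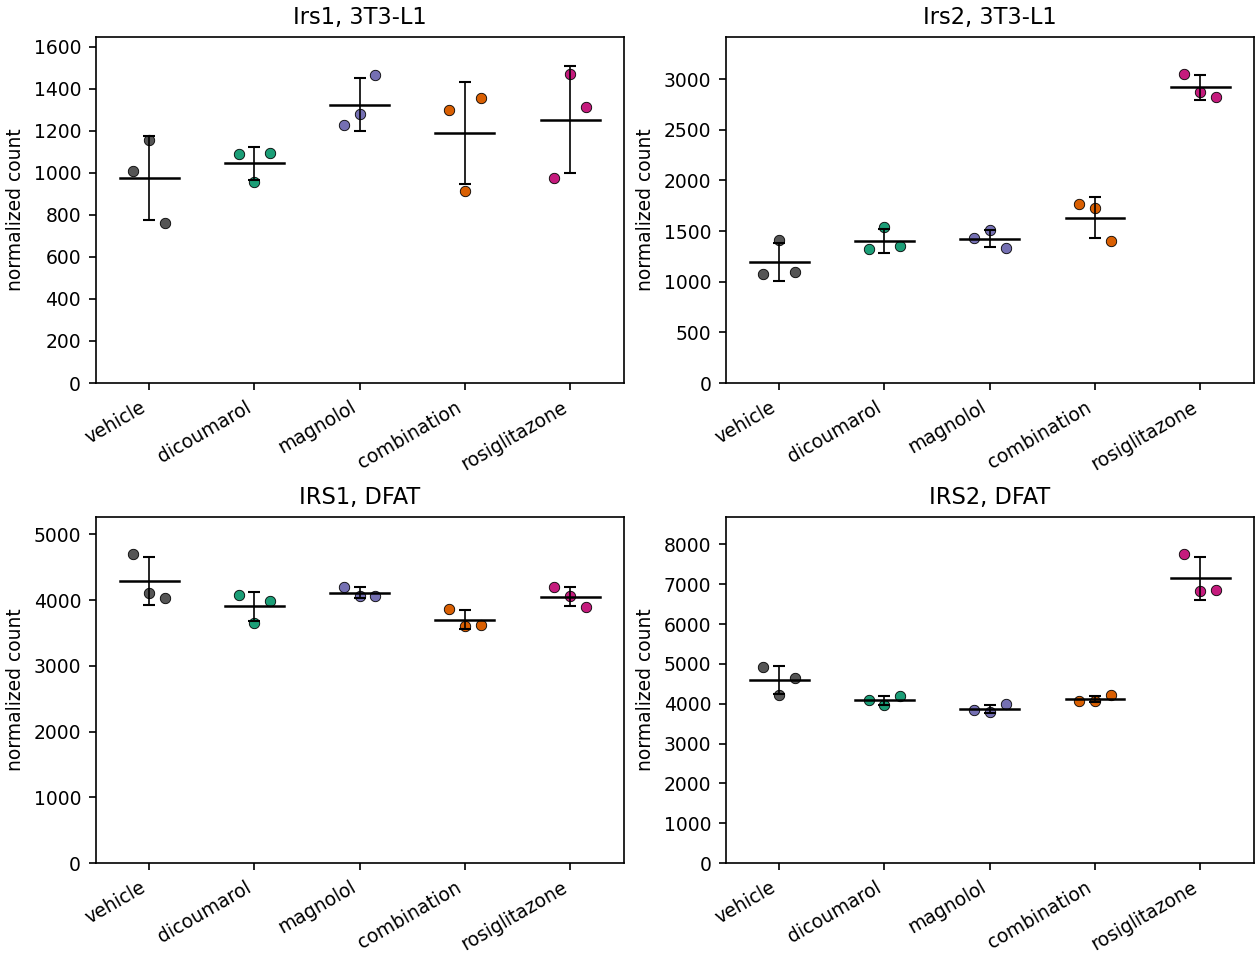
Normalized counts of Irs1 and Irs2 in each library by group, 3T3-L1 above and DFAT below, with bars for the mean and SD of 3 libraries and axes starting at 0. Rosiglitazone libraries stand above the others for Irs2 in both systems, with 3T3-L1 values of 2828 to 3052 and DFAT values of 6831 to 7764. For Irs1 they overlap with vehicle in both systems. Magnolol in 3T3-L1 lies above vehicle for Irs1, and the combination in DFAT lies below vehicle for IRS1, both without overlap.

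Grb14, the receptor inhibitor, fell in 3T3-L1 (chromosome 2, 64742820 to 64855331, minus strand). Its values were 372, 339 and 299 normalized counts with vehicle, 285, 269 and 272 with dicoumarol, 240, 230 and 207 with magnolol, 206, 203 and 204 with the combination, and 144, 174 and 186 with rosiglitazone. No group overlapped vehicle. The log2 fold changes were −0.57 with magnolol (SE 0.12, limma adjusted p 0.0313), −0.71 with the combination (limma adjusted p 0.00265) and −1.001 with rosiglitazone (limma adjusted p 1.33e-05). Dicoumarol was not called (−0.28, limma adjusted p 0.9998).

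The magnolol fall of Grb14 missed the threshold in several alternatives, with log2 fold changes of −0.62 to −0.50 where a library was left out. This was so without vehicle replicate 1 (limma adjusted p 0.148), vehicle replicate 2 (0.0920) and magnolol replicates 1 (0.0963), 2 (0.0712) and 3 (0.174), and with only the compared groups fitted (0.1004); the falls with the combination and rosiglitazone kept their calls in every alternative run. With the replicate number as a block the magnolol fall kept its call (limma adjusted p 0.00763). In DFAT, GRB14 (chromosome 15, 71119926 to 71247383, minus strand) was listed at 0 in 13 of 15 libraries. Magnolol replicate 3 had 3.16 normalized counts, about 3 reads, and combination replicate 3 had 1.27, about 1 read. A count of 0 allows up to 3 reads, which were worth 2.54 to 3.85 normalized counts per library, so no change was detectable at this depth.

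Pik3r1, which encodes the regulatory p85α subunit of PI 3-kinase, was not called in 3T3-L1 (chromosome 13, 101817071 to 101904725, minus strand). Its libraries ranged from 8270 to 13925 normalized counts, with 10288, 13925 and 10300 in vehicle alone, and the rosiglitazone difference was −0.15 (95% interval −0.47 to 0.17). In DFAT, PIK3R1 (chromosome 16, 46511521 to 46523609, plus strand) was 10064, 10535 and 9351 with vehicle and fell to 7220, 8645 and 6792 with rosiglitazone. The groups did not overlap, and the log2 fold change was −0.41 (SE 0.08, limma adjusted p 0.00211), kept in every alternative run. Dicoumarol, magnolol and the combination differed from vehicle by −0.06 to 0.11 and were not called.

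The AKT genes moved in opposite directions with rosiglitazone in 3T3-L1. Akt2 (chromosome 7, 27290977 to 27340251, plus strand), the form tied to GLUT4 traffic, was 2253, 2181 and 2272 with vehicle, 2684, 2798 and 2630 with the combination and 2736, 3092 and 2892 with rosiglitazone. It rose by 0.38 with rosiglitazone (SE 0.07, limma adjusted p 0.000735) and by 0.27 (limma adjusted p 0.0395) with the combination, without overlap in either. Akt1 (chromosome 12, 112620255 to 112641318, minus strand) was 10440, 9934 and 8820 with vehicle and 6728, 8291 and 6491 with rosiglitazone. It fell by 0.45 (SE 0.10, limma adjusted p 0.00218), also without overlap, and was not called with the other treatments.

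The small rise of Akt2 with the combination was lost when any of the 6 libraries of vehicle and combination (replicates 1, 2 and 3 of each) was left out, with limma adjusted p from 0.0774 to 0.136. It was also lost with no filter (0.0639), quantile normalization (0.0511), only the compared groups fitted (0.125) and no variance trend (0.0600). The rise kept its call with the replicate number as a block (limma adjusted p 0.0104). Akt2-ps, a pseudogene copy of Akt2, was listed at a mean of 557 ± 53.3 (SD, n = 3) with vehicle. Its mean was 709 ± 42.5 with the combination and 603 ± 137 with rosiglitazone. Its combination (667 to 752) and magnolol (649 to 698) libraries lay above vehicle (505 to 611), while rosiglitazone overlapped with vehicle. Reads may have been split between the copies, so the Akt2 values are uncertain. As a description, the log2 ratio of Akt2 to Akt1 ran from −2.21 to −1.96 with vehicle and from −1.42 to −1.17 with rosiglitazone. AKT2 in DFAT (chromosome 6, 48555795 to 48587919, minus strand) ranged from 2194 to 2942 over all 15 libraries and was not called in any comparison, with a rosiglitazone difference of 0.06 (95% interval −0.14 to 0.26).

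Foxo1, the transcription factor that AKT restrains, rose with rosiglitazone in 3T3-L1 (chromosome 3, 52175757 to 52260642, plus strand). It was 2001, 1939 and 2152 with vehicle, 2337, 2155 and 2494 with magnolol, 2535, 2229 and 2573 with the combination and 2645, 2546 and 2449 with rosiglitazone. All 9 of these treated libraries lay above the vehicle libraries. The rosiglitazone log2 fold change was 0.33 (SE 0.09, limma adjusted p 0.00683). With the combination it was 0.27, not called (limma adjusted p 0.0939), but called with the replicate number as a block (0.0159).

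In DFAT, FOXO1 (chromosome 11, 15317124 to 15410473, minus strand) was 11138, 10752 and 10899 with vehicle. Values were lower without overlap for magnolol (9757, 10192 and 10268), the combination (9624, 9877 and 10310) and rosiglitazone (9104, 10680 and 9153), and none was called. The rosiglitazone difference of −0.18 had a limma adjusted p of 0.0623; it was called without rosiglitazone replicate 2 (0.00265) and after quantile normalization (0.0217).

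**Figure D3:**
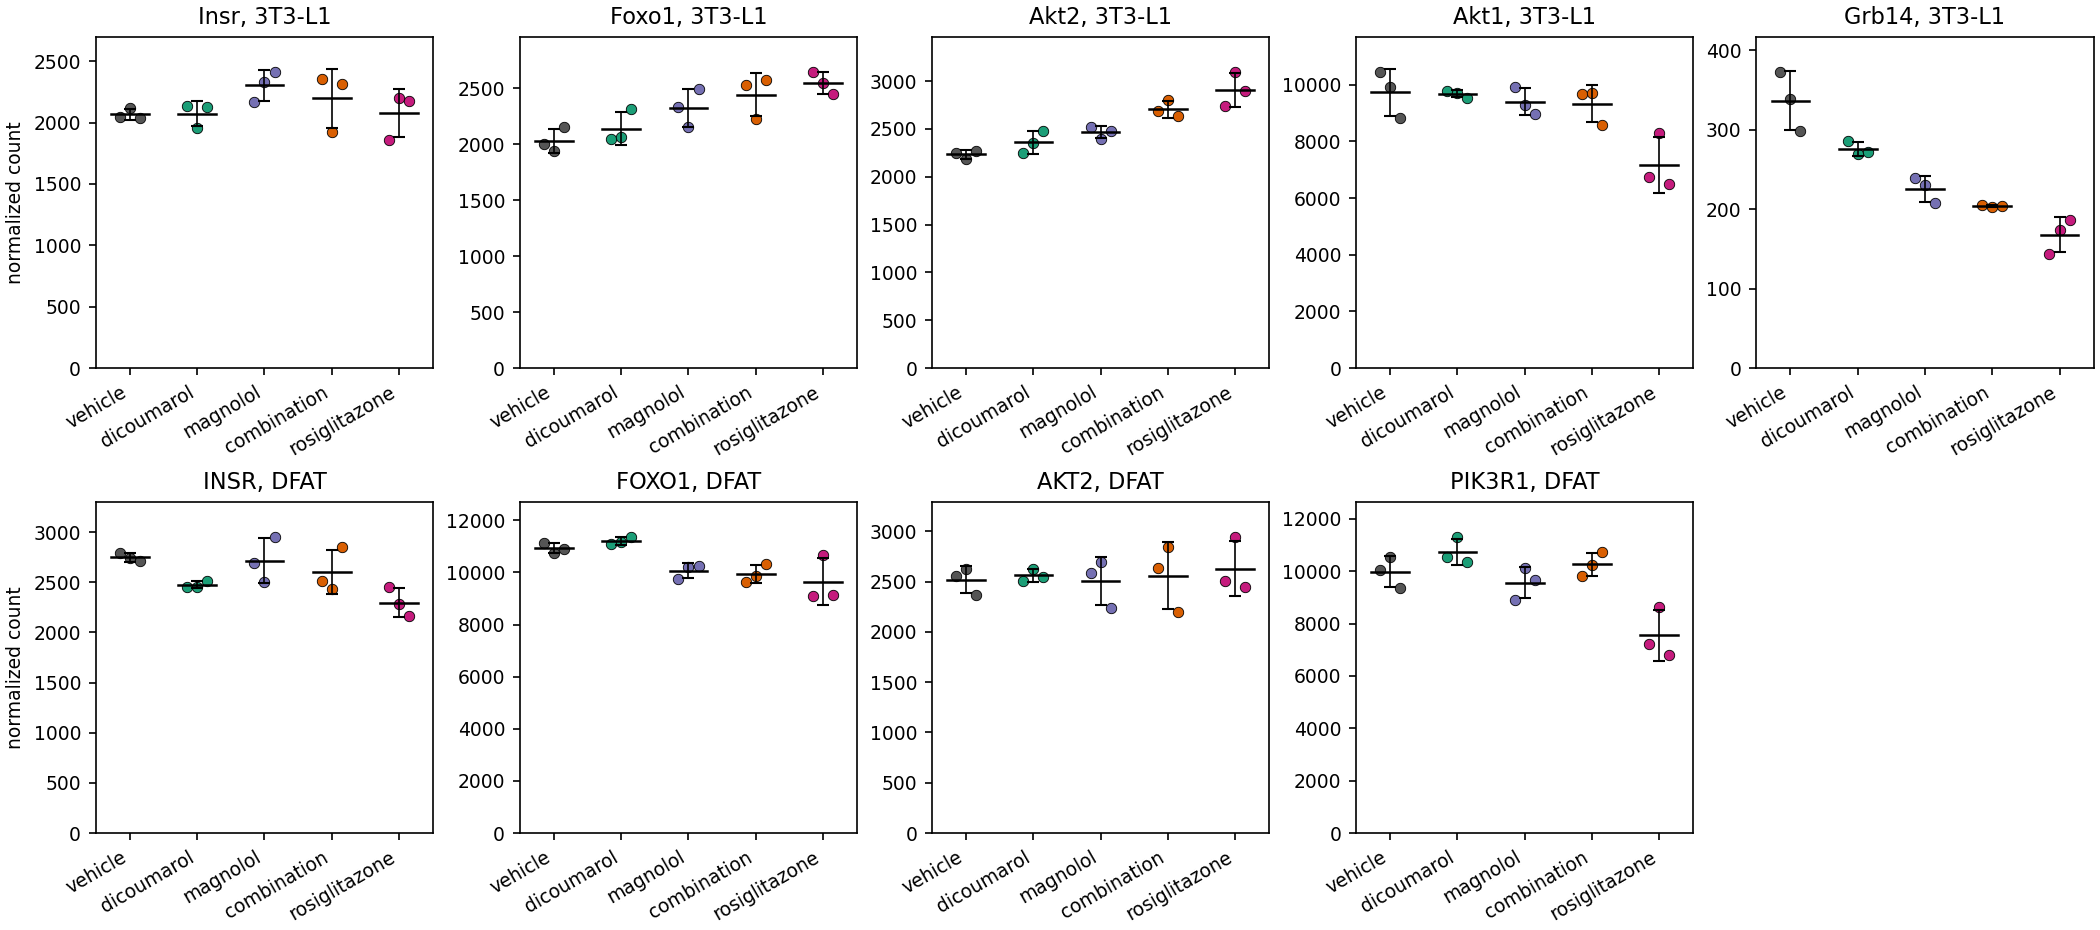
Normalized counts of the remaining members in each library by group, with bars for the mean and SD of 3 libraries and axes starting at 0: Insr, Foxo1, Akt2, Akt1 and Grb14 in 3T3-L1 above, INSR, FOXO1, AKT2 and PIK3R1 in DFAT below. Grb14 goes from 299 to 372 with vehicle down to 144 to 186 with rosiglitazone, and Foxo1 lies higher with rosiglitazone than with vehicle in 3T3-L1 but not in DFAT.

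GLUT4 itself showed the widest range. Slc2a4 (chromosome 11, 69833365 to 69839014, minus strand) in 3T3-L1 had 10.7, 5.99 and 5.81 normalized counts with vehicle, 42.4, 6.67 and 13.7 with dicoumarol, 58.2, 30.6 and 60.7 with magnolol, 73.0, 30.2 and 59.6 with the combination and 309, 152 and 204 with rosiglitazone. Only the dicoumarol libraries overlapped with vehicle. Slc2a4 rose by 2.56 with magnolol (SE 0.51, limma adjusted p 0.0226), by 2.66 (limma adjusted p 0.00563) with the combination and by 4.70 with rosiglitazone (limma adjusted p 4.74e-06). The vehicle level rests on 24 reads over 3 libraries. As ratios of summed reads, rosiglitazone was 29.4 times vehicle (95% exact interval 19.5 to 46.2), the combination 7.06 times (4.58 to 11.3), magnolol 6.61 times (4.28 to 10.6) and dicoumarol 2.82 times (1.75 to 4.70). These intervals cover counting error only. In bulk RNA, fewer cells of a type and less RNA per cell cannot be told apart.

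The dicoumarol mean of Slc2a4 in 3T3-L1 was carried by replicate 1, at 42.4, while replicate 2, at 6.67, lay among the vehicle libraries (1.04, SE 0.51, not called). The rise with magnolol missed the threshold when magnolol replicate 1 (limma adjusted p 0.129), magnolol replicate 3 (0.109), vehicle replicate 2 (0.0832) or vehicle replicate 3 (0.0921) was removed, and with no variance trend (0.0652). It kept its call with the replicate number as a block (limma adjusted p 6.84e-05). Replicate 2 had the lowest Slc2a4 in each of the dicoumarol, magnolol, combination and rosiglitazone groups. The calls for the combination and rosiglitazone were kept in every alternative run.

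In DFAT, SLC2A4 (chromosome 12, 52628450 to 52634967, plus strand) had 2.54, 4.67 and 2.04 normalized counts with vehicle, 11.7, 9.42 and 5.90 with dicoumarol, 56.2, 52.1 and 33.7 with magnolol, 67.7, 59.3 and 68.8 with the combination and 34.6, 27.4 and 19.4 with rosiglitazone. No treated group overlapped with vehicle. SLC2A4 rose by 3.59 with magnolol (SE 0.33, limma adjusted p 2.55e-06), by 4.07 (limma adjusted p 2.16e-07) with the combination and by 2.80 with rosiglitazone (limma adjusted p 1.34e-05), all kept in every alternative run. Only 10 vehicle reads lie behind these values. The ratio of summed reads to vehicle was 21.1 for the combination (95% exact interval 11.2 to 44.7), 15.4 for magnolol (8.15 to 32.8), 8.61 for rosiglitazone (4.44 to 18.7) and 2.92 for dicoumarol (1.38 to 6.72). With dicoumarol the difference of 1.30 missed the threshold (limma adjusted p 0.0545). It was called with a pseudocount of 0.5 (0.0432), without vehicle replicate 2 (0.0312) and without dicoumarol replicate 3 (0.0455).

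**Figure D4:**
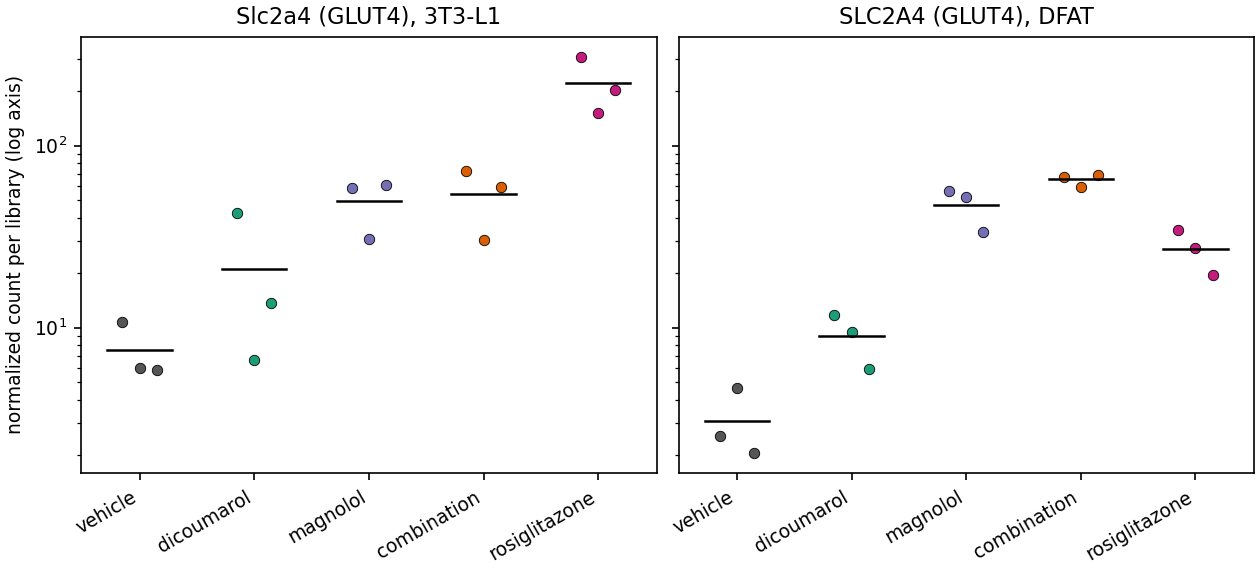
Normalized counts of Slc2a4 in each library by group on a log axis, 3T3-L1 left and DFAT right, with a line for the mean of 3 libraries. Rosiglitazone libraries are the highest in 3T3-L1 (152 to 309), whereas in DFAT the combination (59.3 to 68.8) lies above rosiglitazone (19.4 to 34.6).

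The summed adipocyte markers were highest with rosiglitazone in both systems, as Slc2a4 was in 3T3-L1, whereas SLC2A4 in DFAT was highest with the combination. Single markers did not all follow the sum. Of 12 in DFAT, 5 were higher with rosiglitazone than with the combination, LEP was lower and 6 were not called (17% of all genes called). Of 11 tested in 3T3-L1, 8 were higher with rosiglitazone and 3 were not called (18.3% of all genes called). The summed level of the 12 listed markers in 3T3-L1 ran from 52292 to 70150 normalized counts with vehicle, 75382 to 108278 with dicoumarol, 105283 to 147615 with magnolol, 128764 to 199805 with the combination and 343638 to 587586 with rosiglitazone. In DFAT the ranges in the same order were 19157 to 21928, 25256 to 27235, 39737 to 47879, 65466 to 72712 and 84136 to 91316. Of the markers tested, 0, 7, 10 and 11 of 11 rose in 3T3-L1 and 7, 9, 11 and 10 of 12 in DFAT with dicoumarol, magnolol, the combination and rosiglitazone. Of all genes, 0%, 1.23%, 5.22% and 40.1% were called in 3T3-L1 and 1.94%, 4.22%, 10.2% and 10.8% in DFAT. The part of the adipocyte markers in the Slc2a4 differences was not tested.

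GLUT4 is also made by muscle, so muscle markers were read beside it. In 3T3-L1, 5 of 10 listed genes had a row, their sum stayed between 64.3 and 124, and Mb, Myh4 and Tnnt3 were under 10 in every library. In DFAT, 9 of 10 had a row, and MYOD1, MYF5, MYOG, PAX7, MYH4 and TNNT3 were under 10 in every library. Their summed level in DFAT was 132 to 152 with vehicle, 185 to 210 with dicoumarol, 175 to 265 with magnolol, 257 to 311 with the combination and 145 to 234 with rosiglitazone. With the combination ACTA1 (0.59, limma adjusted p 0.0331) and DES (1.81, limma adjusted p 0.00463) rose, where 10.2% of all genes were called. Fibroblast markers summed to 494249 to 520247 with vehicle and 252690 to 329016 with rosiglitazone in 3T3-L1, and 8 of 10 fell there (40.1% of all genes called). In DFAT the sum of 9 fibroblast markers was 4007460 to 4127030 with vehicle, 4876310 to 4931000 with dicoumarol, 5150420 to 6282100 with magnolol, 5038590 to 6261220 with the combination and 3594270 to 3925180 with rosiglitazone. Of the 8 tested, 1 rose and 1 fell with dicoumarol, where 1.94% of all genes were called. With magnolol and with the combination 2 rose and 1 fell (4.22% and 10.2% of all genes called). With rosiglitazone 2 fell (10.8% of all genes called). Those that rose were the collagen genes COL1A1 and COL3A1. PDGFRA fell with each of the 4 treatments, and S100A4 with rosiglitazone. These genes were named after their values were seen. The part of these markers in the results was not tested.

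The log2 ratio of Slc2a4 to Plin1, a lipid droplet coat gene of fat cells, is given as a description and was chosen after the values were seen. In 3T3-L1 it ran from −4.98 to −4.25 with vehicle and from −4.81 to −4.12 with rosiglitazone, so these groups overlapped. In DFAT it ran from −7.89 to −7.21 with rosiglitazone, below all libraries of the other groups, which lay between −6.54 and −5.05. Against Adipoq, which encodes adiponectin, the DFAT range was −7.93 to −6.67 with rosiglitazone, −5.16 to −4.95 with the combination and −3.25 to −3.17 with vehicle. In DFAT rosiglitazone libraries SLC2A4 was thus low relative to both adipocyte genes.

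**Figure D5:**
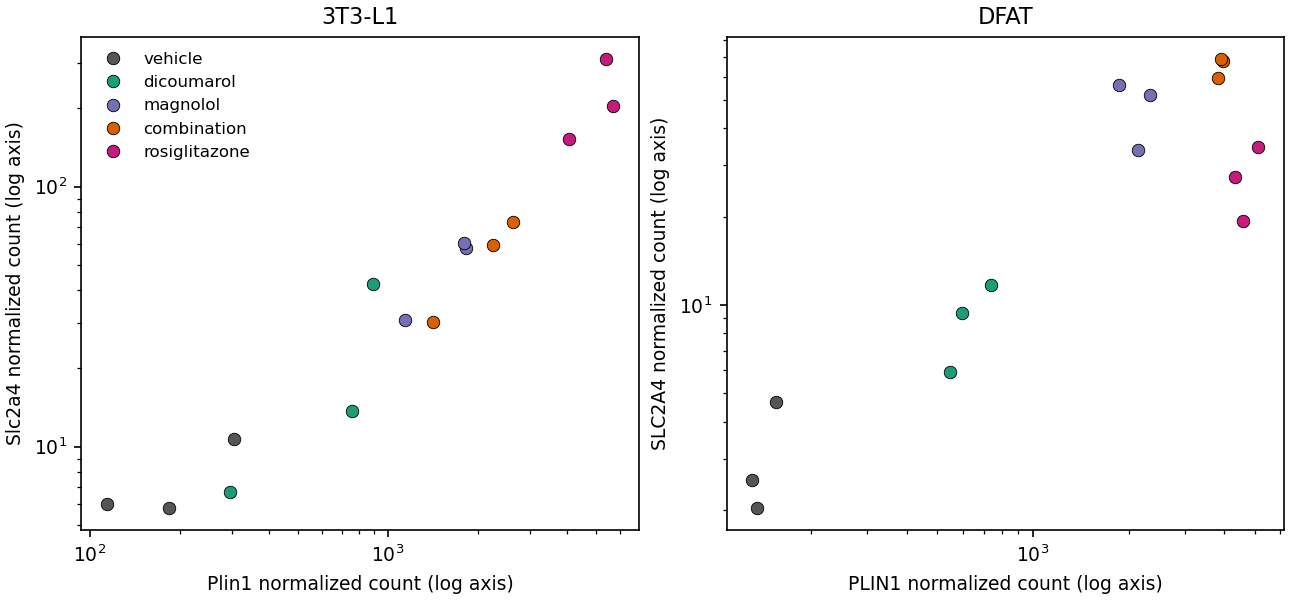
Slc2a4 against Plin1 normalized counts on log axes, 1 point per library coloured by group, 3T3-L1 left and DFAT right. In 3T3-L1 the libraries lie near 1 rising line, while in DFAT the rosiglitazone libraries have the highest PLIN1 (4331 to 5128) and SLC2A4 of only 19.4 to 34.6.

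The genes whose pattern was most like that of Slc2a4 were found by Pearson correlation of log2(normalized count + 1) over the 15 libraries of a table, among genes with a mean of at least 100. In 3T3-L1 (11578 genes) these were Acsl1 (r = 0.989), Gm6166 (0.985), Gm14328 (0.984), Fabp5 (0.983) and Plaat3 (0.983), and Adipoq ranked 7, Plin1 37 and Fabp4 69. In DFAT (9933 genes) they were LOXL4 (0.978), SMTN (0.965), ITGA5 (0.951), SLC36A2 (0.948) and CHST13 (0.946), and PLIN1 ranked 14, ADIPOQ 36 and FABP4 344 (0.681). Each set of 15 libraries shares its groups and size factors, so these values describe the libraries and carry no test.

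The combination was set against dicoumarol and against magnolol. Among 3T3-L1 members, 0 of 9 were called against dicoumarol (0.0254% of all genes; 4 members at an unadjusted p under 0.05) and 0 against magnolol (0% of all genes; 0 members unadjusted). Slc2a4 was 30.2 to 73.0 with the combination and 6.67 to 42.4 with dicoumarol, overlapping, with a difference of 1.61 (limma adjusted p 0.291); with the replicate block it was called (0.00663). Against magnolol the difference was 0.09 (95% interval −0.99 to 1.18), a wide interval. In DFAT, SLC2A4 alone of 7 members was called against dicoumarol (2.35% of all genes), where it rose by 2.77 (SE 0.33, limma adjusted p 6.14e-05) without overlap. Against magnolol 0 of 7 were called (0.621% of all genes; IRS1 at an unadjusted p under 0.05), and SLC2A4 differed by 0.49 (95% interval −0.21 to 1.19), with all combination libraries above the magnolol libraries.

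The interaction of dicoumarol and magnolol asks whether the combined log2 difference departs from the sum of the single ones. It was called for 0 of 9 members in 3T3-L1 (0% of all genes; 0 members unadjusted, 0 with the replicate block) and 0 of 7 in DFAT (0.081% of all genes). For Slc2a4 it was −0.95 in 3T3-L1 (95% interval −2.49 to 0.59) and −0.82 in DFAT (−1.81 to 0.17). IRS2 in DFAT had 0.25 (95% interval 0.06 to 0.44, limma adjusted p 0.883), the 1 member at an unadjusted p under 0.05.

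Rosiglitazone and the combination were set against each other. In 3T3-L1, 3 of 9 members were called (18.3% of all genes): Irs2 was higher by 0.84 (limma adjusted p 0.000655), Slc2a4 higher by 2.04 (0.0134) and Akt1 lower by 0.38 (0.0159) with rosiglitazone, each without overlap. The Slc2a4 call was lost without combination replicate 2 (limma adjusted p 0.0618) or rosiglitazone replicate 1 (0.0746). That of Akt1 was lost without combination replicate 1 (limma adjusted p 0.0561) or 2 (0.0581), without rosiglitazone replicate 1 (0.0690) or 3 (0.0654), and with only the compared groups fitted (0.0703). Both calls were kept with the replicate block (limma adjusted p 0.000148 for Slc2a4 and 0.00155 for Akt1).

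In DFAT, 3 of 7 members were called between rosiglitazone and the combination (17% of all genes). IRS2 was higher with rosiglitazone by 0.79 (limma adjusted p 3.08e-07) and PIK3R1 lower by 0.45 (−0.45, limma adjusted p 0.000731), both kept in every alternative run. SLC2A4 fell by 1.27 (SE 0.33, limma adjusted p 0.0133), a call lost without rosiglitazone replicate 3 (0.0638). The direction for SLC2A4 was thus opposite to that in 3T3-L1, a contrast whose difference between systems was not itself tested.

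Differences between the systems were tested for each treatment against vehicle, as the 3T3-L1 minus the DFAT log2 fold change, over 9371 symbols found once in both tables. Of 7 members tested, 0, 1, 2 and 4 were called for dicoumarol, magnolol, the combination and rosiglitazone, where 0.149%, 3.23%, 11.7% and 38.8% of all symbols were. With rosiglitazone Slc2a4 rose more in 3T3-L1 (4.70 against 2.80; difference 1.90, SE 0.61, adjusted p 0.0151, Benjamini-Hochberg on limma fold changes), and so did Irs2 (1.30 against 0.64). Foxo1 differed by 0.51 (0.33 in 3T3-L1 and −0.18 in DFAT) and Akt2 by 0.32 (0.38 and 0.06). Irs2 also differed with the combination (0.45 and −0.15) and with magnolol (0.26 and −0.24), and Foxo1 with the combination (0.27 and −0.14). With magnolol and the combination the Slc2a4 differences were −1.02 and −1.41, larger in DFAT but not called (limma-based adjusted p 0.504 and 0.142).

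Of these 7 calls, Irs2 and Foxo1 with rosiglitazone and Irs2 with the combination were kept in every alternative run. Irs2 with magnolol was lost without 3T3-L1 vehicle replicate 1 (limma-based adjusted p 0.118) or 3 (0.112), 3T3-L1 magnolol replicate 1 (0.110) or 2 (0.0921) or DFAT vehicle replicate 1 (0.0698). It was also lost with quantile normalization (0.0528), the compared groups alone (0.0578) or no trend (0.0650). Foxo1 with the combination was lost without 3T3-L1 combination replicate 1 (0.0512), and Slc2a4 with rosiglitazone without 3T3-L1 rosiglitazone replicate 1 (0.0623). Akt2 with rosiglitazone was lost without 3T3-L1 vehicle replicate 2 (0.0620), 3T3-L1 rosiglitazone replicate 2 (0.0728), DFAT vehicle replicates 1 (0.0682) or 2 (0.0863) or DFAT rosiglitazone replicates 1 (0.0790) or 3 (0.101). The same held for Akt2 with no filter (0.0523), the compared groups alone (0.0880) or no trend (0.0564).

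The other genes of the pathway came from 7 lists with 96 genes, of which 87 were tested in 3T3-L1 and 88 in DFAT. These lists too were chosen with earlier results of these data known, so their shares are a description. In 3T3-L1 none was called with dicoumarol, 5 rose with magnolol, 7 rose with the combination, and 15 rose and 24 fell with rosiglitazone. In DFAT 1 fell with dicoumarol, 4 rose with magnolol, 9 rose and 2 fell with the combination, and 11 rose and 6 fell with rosiglitazone. Their median log2 fold change stayed between −0.17 and 0.04, where the median of all genes lay between −0.01 and 0.00. As a share, 44.8% of the pathway genes were called with rosiglitazone in 3T3-L1 (40.1% of all genes) and 19.3% in DFAT (10.8% of all genes). With magnolol it was 5.75% in 3T3-L1 (1.23% of all genes) and 4.55% in DFAT (4.22%). With the combination it was 8.05% in 3T3-L1 (5.22% of all genes) and 12.5% in DFAT (10.2%). With dicoumarol it was 0% in 3T3-L1 (0% of all genes) and 1.14% in DFAT (1.94%). The 5 that rose with magnolol in 3T3-L1 were Sh2b2 (1.52), Pnpla2 (1.199), Sort1, Tbc1d4 and Hk2 (0.58), and all 5 also rose with the combination and with rosiglitazone. With magnolol Sh2b2 missed the threshold without vehicle replicate 1 (limma adjusted p 0.0593), 2 (0.103) or 3 (0.0553), magnolol replicate 1 (0.139) or 3 (0.128) and with no variance trend (0.0792). Pnpla2 missed it without magnolol replicate 1 (0.0683), and Hk2 without magnolol replicate 1 (0.0557) and with the compared groups alone (0.0518). The gene that fell with dicoumarol in DFAT was HK2 (−0.53, limma adjusted p 0.00178).

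Of the 21 vesicle genes of GLUT4 traffic tested in 3T3-L1, 4 rose and 5 fell with rosiglitazone, where 40.1% of all genes were called. Sort1, which encodes sortilin, a sorting receptor of GLUT4 vesicles, rose by 2.25, and Tbc1d4, the AKT substrate that gates their release, rose by 1.05; both were called with magnolol (1.17 and 0.62) and the combination (1.38 and 0.73) as well. Lrp1, a vesicle cargo receptor, fell by 1.06. Lnpep, the vesicle aminopeptidase IRAP, rose by 0.40 (limma adjusted p 0.0397). With magnolol Sort1 missed the threshold without vehicle replicate 2 (limma adjusted p 0.0503), vehicle replicate 3 (0.0523), magnolol replicate 1 (0.0786) or 3 (0.0572), and Tbc1d4 without magnolol replicate 1 (0.0519) or 3 (0.0555). Lnpep lost its call without vehicle replicate 1 (0.107) or 3 (0.124), without rosiglitazone replicate 2 (0.178) or 3 (0.104), and with no filter (0.0564), the compared groups alone (0.120) or no trend (0.0651).

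Among receptor adaptors in 3T3-L1, 1 of 10 tested rose and 2 fell with rosiglitazone, in the comparison that called 40.1% of all genes. Sh2b2, an adaptor of the insulin receptor, rose by 2.40, and Igf1r, the receptor for insulin-like growth factor, fell by 0.80. Dok1 fell by 0.40 (limma adjusted p 0.0242), which was lost without vehicle replicate 3 (0.133), rosiglitazone replicate 1 (0.0655) or 2 (0.0515) and with the compared groups alone (0.0700). Of the 13 brakes tested, 0 rose and 2 fell, Phlpp1 (−0.71) and Socs3 (−0.70); Grb10 (−0.18) was not called. In the PI 3-kinase and AKT list, 1 of 11 rose, Pik3r3 (0.59), and 4 fell, with Pik3cd at −0.66.

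In the list of AKT and mTORC1 targets, the RNA of 6 of 14 genes was higher and of 2 lower with rosiglitazone in 3T3-L1. That comparison called 40.1% of all genes, and it also gave the glucose transporter and FOXO1 target counts below. Foxo3 fell by 0.82, Gys1, a glycogen synthase, rose by 0.53 (limma adjusted p 0.0125; 0.0721 without vehicle replicate 2) and Pde3b, the phosphodiesterase through which insulin restrains lipolysis, rose by 0.61 (limma adjusted p 0.0363). Pde3b overlapped between groups and was lost without vehicle replicate 1 (0.0747) or 3 (0.198), rosiglitazone replicate 2 (0.0827) or 3 (0.109), and with the compared groups alone (0.106) or no trend (0.0539). Of 6 other glucose transporters and hexokinases tested, Hk2 rose by 1.32 and 4 fell, among them Slc2a13 (−0.84), Hk1 (−0.66) and Slc2a1 (−0.47), which encodes GLUT1. Of 13 reported FOXO1 targets, 2 rose and 5 fell: Pnpla2, a triglyceride lipase, rose by 2.79, while Fbxo32 (−1.21) and Trib1 (−1.05) fell.

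The log2 ratio of Slc2a4 to Slc2a1 joins both transporters. In 3T3-L1 it ran from −8.58 to −7.87 with vehicle and from −3.45 to −2.51 with rosiglitazone. In DFAT it ran from −11.84 to −10.72 with vehicle, from −7.21 to −7.00 with the combination and from −9.15 to −8.37 with rosiglitazone. SLC2A1 rose by 0.48 with rosiglitazone in DFAT, the direction opposite to that in 3T3-L1, and by 0.20 with magnolol (limma adjusted p 0.0420). That magnolol call was lost without vehicle replicate 2 (0.0907) or 3 (0.161) and magnolol replicates 1 (0.134), 2 (0.105) or 3 (0.104), after quantile normalization (0.0682), with the compared groups alone (0.148) and with no trend (0.0607).

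In DFAT 4 of 21 vesicle genes rose with the combination, where 10.2% of all genes were called. Among them were LNPEP, by 0.45, and MYO1C, a motor of GLUT4 vesicles, by 0.40. SORT1 (0.12) and TBC1D4 (−0.04) were not called there. Of 12 brakes, SOCS3 fell by 0.78 and PTPRF, a receptor phosphatase, rose by 0.52 with the combination, and TRIB3, an AKT inhibitor, rose by 0.58 with rosiglitazone. PDE3B rose by 1.56 with rosiglitazone and by 1.04 with the combination, from a vehicle mean of 72.3. SLC2A12 fell by 0.99 and SLC2A5, a fructose transporter, rose by 0.93 with rosiglitazone, as did HK2 by 0.56 and PNPLA2 by 0.57. IGF1R (−0.19) and GRB10 (0.21) were not called with rosiglitazone. TRIB1 fell by 0.41 with the combination.

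Some smaller DFAT calls missed the threshold in alternatives. Without the libraries named here, SHC1 was still 0.21 higher, PIK3R3 −0.35, PIK3R2 −0.24 to −0.18 and TXNIP 0.30 to 0.35. SHC1 rose by 0.22 with rosiglitazone (limma adjusted p 0.0187), lost without vehicle replicate 2 (0.0702) or 3 (0.0541) and with the compared groups alone (0.0938). PIK3R3 fell by 0.47 (limma adjusted p 0.00985), the opposite of its direction in 3T3-L1, lost without rosiglitazone replicate 1 (0.0529) and with the compared groups alone (0.0514). PIK3R2 fell by 0.23 (limma adjusted p 0.0496), lost without vehicle replicate 1 (0.219) or 2 (0.113), rosiglitazone replicate 1 (0.0942) or 3 (0.208), and with no filter (0.0983), the compared groups alone (0.143) or no trend (0.0953). TXNIP rose with the combination by 0.39 (limma adjusted p 0.0236), lost without vehicle replicate 1 (0.128) or combination replicates 2 (0.0867) or 3 (0.0881), with no filter (0.0750) and with no trend (0.0663).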

How the data were processed

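Bulk RNA was sequenced from poly(A)-selected libraries, 3 per group. Per the submitters' processing notes, bcl2fastq 2.19.1.403, STAR and DESeq2 were used; the sources used here do not state the annotation or the counting settings. The deposited signal values are gene counts divided by 1 size factor per library, by the authors. Whole reads came out for 81.8 to 83.1% of low values in 3T3-L1 and 85.8 to 91.0% in DFAT (within 0.02, up to 20 reads), so no count test was run. The exact binomial intervals of the Slc2a4 read ratios used estimated reads, summed per group and rounded, so they are approximate. The notes name GRCm38 for all samples, pig included, but only 2.18% of 24070 mouse gene IDs shared their start with GENCODE vM21, so the build is not settled.

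Each table was fitted on its own in R 4.3.3 with limma 3.58.1 (trend, all 5 groups) on log2(value + 1), for genes with a mean of at least 10, with Benjamini-Hochberg adjustment over all genes tested. Fold changes were compared between systems by the root of the summed squared SE, with Satterthwaite degrees of freedom, adjusted over 9371 symbols. The fit was also run on simulated data that held no replicate effect, so that run does not cover deviations shared by libraries of the same replicate number. Figures and ratios used Python 3.11.15, numpy 2.4.6, pandas 2.3.3 and matplotlib 3.10.9. Promoters came from RefSeq on GRCm38.p6; 7 of 9 members matched.

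Members and gene lists were chosen with earlier results of these data known. Named pathway genes were, per list and table, up to 3 with the largest called difference from vehicle and a mean of at least 100, plus Slc2a1, Igf1r, Grb10, Tbc1d4, Lnpep, Sort1 and Pde3b; some genes the rule names are not reported here. Genes most like Slc2a4 were the 5 with a symbol, that mean and the highest Pearson correlation. Alternatives were pseudocounts of 0.5 and 5, no filter, quantile normalization, only the compared groups, no variance trend, the replicate number as a block, and each library left out. In 3T3-L1 same-numbered libraries deviated together: all 30 same-number pairs of libraries had a correlation of deviations over 0.1 (lowest 0.106, median 0.300; median −0.142 for the 60 others). In DFAT the numbers did not pair the rosiglitazone libraries with vehicle (−0.306 to 0.0763). Same-number correlations with vehicle were low but positive for dicoumarol (0.0747 to 0.193), magnolol (0.00472 to 0.209) and the combination (0.0331 to 0.166).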

Additional observations from a re-analysis of the deposited data

Results flagged for a closer look

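In 7 cases a member's log2 fold change against vehicle differed between 3T3-L1 and DFAT cells by a test of the difference itself (3T3-L1 minus DFAT, Benjamini-Hochberg over 9371 symbols on limma fold changes). With rosiglitazone the differences were 1.90 for Slc2a4 (adjusted p 0.0151), 0.658 for Irs2 (adjusted p 0.000306), 0.511 for Foxo1 (adjusted p 0.000342) and 0.317 for Akt2 (adjusted p 0.0342). With the combination they were 0.606 for Irs2 (adjusted p 0.00288) and 0.404 for Foxo1 (adjusted p 0.0108), and with magnolol 0.505 for Irs2 (adjusted p 0.0299). Species, medium, insulin and serum cannot be told apart in these differences.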

How the results depend on the processing

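Of 27 called member differences, 17 kept their call under every alternative, and of 7 called differences between systems 3 did. Over 484 alternative values of these calls 408 kept the call, 76 lost it and 0 reversed. Of 101 uncalled differences 6 were called in some alternative, and 38 changed sign in some. Of 58 calls of named pathway genes 42 were kept and 0 reversed. The cause of lost calls was not tested.

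Fitting only the compared groups, or no variance trend, left 1 member called in 3T3-L1 with magnolol (from 2) and 2 with the combination (from 4). In DFAT these settings, no filter and quantile normalization each left 1 called with magnolol and 1 with the combination (from 2 each), and quantile normalization gave 2 for the combination against dicoumarol (from 1). A pseudocount of 0.5 gave 1 for dicoumarol in DFAT (from 0). For magnolol between systems, quantile normalization, only the compared groups and no trend gave 0 (from 1). With the replicate block, 1 member was called for the combination against dicoumarol in 3T3-L1 and 1 for dicoumarol in DFAT (SLC2A4, adjusted p 0.0172); rosiglitazone in DFAT went from 4 to 5 (FOXO1, adjusted p 0.0268), where the numbers do not pair the libraries. Between systems it gave 1 for dicoumarol, 2 for magnolol and 4 for the combination. Besides Foxo1 with the combination and Slc2a4 for the combination against dicoumarol, the block changed no other call of a 3T3-L1 member.

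Leaving out 1 library gave, in 3T3-L1, 0 to 1 members for magnolol, 2 to 3 for the combination, 6 to 7 for rosiglitazone and 1 to 3 for rosiglitazone against the combination. In DFAT it gave 0 to 1 for dicoumarol, 1 to 2 for magnolol, 1 to 2 for the combination, 3 to 5 for rosiglitazone and 2 to 3 for rosiglitazone against the combination. Between systems it gave 0 to 1 for magnolol, 1 to 3 for the combination and 3 to 5 for rosiglitazone. Over all genes, the block moved the 3T3-L1 counts from 0 to 79 for dicoumarol, 193 to 780 for magnolol, 821 to 2124 for the combination and 6312 to 7827 for rosiglitazone. Depth limits Slc2a4, with 24 vehicle reads in 3T3-L1 and 10 in DFAT, and GRB14 in DFAT, at 0 in 13 of 15 libraries.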
